A study of Mus musculus with 15 samples.

Results

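Nusap1, Tpx2, Cenpe, Incenp, Anln, Septin7, Smc1a and Pds5b encode proteins that build the spindle, hold and move chromosomes, keep sister chromatids together and cut the cell in 2. These 8 genes were found by symbol in a table of 55490 genes measured by ribosome profiling of mouse eggs and early embryos. They were chosen for their levels across stage and genotype in these same libraries, so their own values are given as a description. Each of the 8 was among the 495 genes that passed the filter on low counts. Together they held 3928 of the 255766 counts that fell in protein-coding genes.

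Ribosome profiling sequences the short RNA fragments that a ribosome shields from a nuclease, so a count reports ribosome-bound RNA rather than total RNA. The females that gave the eggs carried an HA tag on Rpl22, which sits in the large subunit of the ribosome, and the strain was B6D2F1. Within each stage the donors were Eif4e1b knockout (KO) or Eif4e1b heterozygous (Het). Eif4e1b encodes a germ-cell relative of the cap-binding protein eIF4E. The 6 groups were M2 eggs from KO females (2 libraries) and Het females (2 libraries), PN5 zygotes from KO (3) and Het (3) females, and early 2-cell embryos from KO (2) and Het (3) females. Het females keep a working allele and are not wild type, and the genotypes of the males and of the embryos are not given in the sources used here. A library was made from a pool of some 200 eggs or zygotes, while early 2-cell pools held some 100 embryos, and nothing says which pools came from separate animals. The p-values therefore measure only the spread between these libraries, which may be technical.

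An M2 egg is held at metaphase of its second meiotic division with the spindle in place. After fertilization it ends meiosis and forms pronuclei, PN5 being the last pronuclear stage before the first mitosis, and the early 2-cell embryo has just finished the first cleavage. With little transcription over much of this interval, division proteins are made largely from stored maternal mRNAs, whose translation is switched on and off in turn.

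Levels are given as the percentage of a library's protein-coding counts. That total was small: 5997 to 47399 counts in M2 eggs, 8614 to 39997 in PN5 zygotes and 1059 to 7795 in early 2-cell embryos. In early 2-cell embryos, the 2 KO libraries held 1623 and 1136 protein-coding counts, and the 3 Het libraries 1059, 1655 and 7795. Protein-coding genes took 0.696% to 5.10% of all counts, and cytosolic ribosomal RNA took 58.9% to 91.9%. The lowest ribosomal share, 58.9%, belonged to PN5 KO replicate 3, where mitochondrial ribosomal RNA took 36.0%. Eif4e1b itself had 0 counts in all 15 libraries, which allows a level of up to 0.846 CPM over the KO libraries together and 0.637 CPM over the Het libraries together, so it could not check the genotype labels. Of 16 egg marker genes, 8 had a count, while Zp1, Zp2, Zp3, Padi6, Oosp1, Tle6, Khdc3 and H1f8 were at 0.

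**Figure D1:**
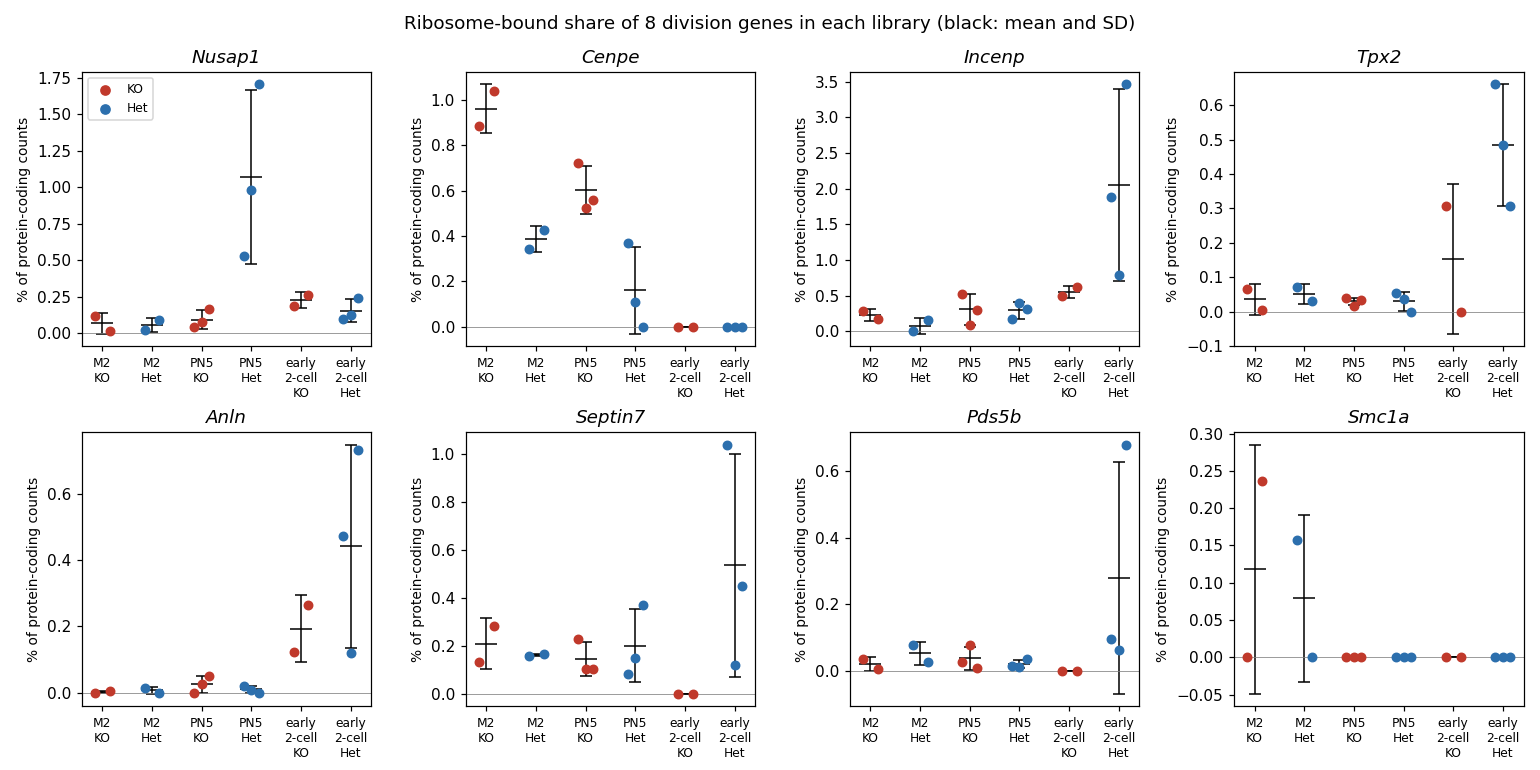
Level of each of the 8 genes in each library, as a percentage of that library's protein-coding counts (vertical axis, a scale of its own per gene), with KO left of Het within M2 eggs, PN5 zygotes and early 2-cell (E2C) embryos. Points are libraries, and lines are the group mean and SD. The PN5 KO points of Nusap1 lie below all 3 PN5 Het points, those of Cenpe lie above them, and Cenpe is at 0 in every early 2-cell library.

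Nusap1 (ENSMUSG00000027306) encodes a protein that binds and bundles spindle microtubules around the chromosomes. It was the only one of the 8 with a count in every library. In PN5 zygotes it stood at 0.0390%, 0.0762% and 0.163% in the KO libraries, from 6, 9 and 65 counts. In the PN5 Het libraries it stood at 0.528%, 0.979% and 1.71%, from 195, 325 and 147 counts. The groups did not overlap, and neither did their exact 95% binomial intervals. These reached at most 0.207% in a KO library and went no lower than 0.457% in a Het library. They treat each read as its own molecule, and Nusap1 was chosen on these levels, so they are a description. The means were 0.0926% ± 0.0634 in KO and 1.07% ± 0.595 in Het zygotes (SD, n = 3 each), which is 11.6-fold lower in KO (18.6-fold without PN5 KO replicate 3). In such pooled samples, fewer cells of a type and less RNA per cell cannot be told apart.

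At the other stages Nusap1 showed no such gap. It had 7 and 8 counts in M2 KO eggs, against 4 and 20 in M2 Het eggs, and the shares overlapped. Early 2-cell embryos had 3 and 3 counts in KO, against 1, 2 and 19 in Het, and the shares again overlapped. Along the Het series the mean ran 0.0545% ± 0.050 in M2 eggs (n = 2), 1.07% ± 0.595 in PN5 zygotes (n = 3) and 0.153% ± 0.0797 in early 2-cell embryos (n = 3). All PN5 Het libraries lay above all M2 Het libraries and above all early 2-cell Het libraries. The exact binomial interval of early 2-cell Het replicate 1, from 1 count, reached 0.525%. That lies within the interval of PN5 Het replicate 1, 0.4568% to 0.6075%. Along the KO series the Nusap1 mean ran 0.0668% ± 0.0706 (n = 2), 0.0926% ± 0.0634 (n = 3) and 0.225% ± 0.0560 (n = 2). There the M2 and PN5 libraries overlapped and the early 2-cell libraries lay above the PN5 ones. At that later step the exact binomial intervals of the nearest libraries overlapped. They were 0.03814% to 0.5392% in early 2-cell KO replicate 1, from 3 counts, and 0.1254% to 0.2071% in PN5 KO replicate 3.

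Markers of cumulus and granulosa cells, the somatic cells around the egg, also differed between KO and Het zygotes, in the direction opposite to Nusap1. The 15 markers summed to 0.212% to 0.888% of protein-coding counts in PN5 KO libraries, against 0% to 0.0677% in PN5 Het libraries. Cyp11a1 gave 561 of the 695 marker counts, 7 of the 15 markers had a count, and Amh, Fshr, Star, Nr5a1, Has2, Tnfaip6, Inha and Ptgs2 were at 0 in every library. Without Cyp11a1 the means were 0.0874% ± 0.108 in PN5 KO and 0.0226% ± 0.0391 in PN5 Het (n = 3 each). The libraries then overlapped, at 0.0130% to 0.212% in KO and 0% to 0.0677% in Het. The part of these cells in the result was not tested.

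Tpx2 (ENSMUSG00000027469) encodes a spindle assembly factor that activates Aurora A kinase and starts microtubules near chromosomes. It was low in eggs and zygotes, with 4 and 2 counts in M2 KO, 15 and 7 in M2 Het, 6, 2 and 13 in PN5 KO, and 20, 12 and 0 in PN5 Het. Its early 2-cell levels were 0.308% and 0% in KO, from 5 and 0 counts, and 0.661%, 0.483% and 0.308% in Het, from 7, 8 and 24 counts. The KO and Het embryos met at 0.308%, so genotypes could not be separated at this depth. Over both genotypes Tpx2 averaged 0.352% ± 0.245 in early 2-cell embryos (n = 5) and 0.0298% ± 0.0189 in PN5 zygotes (n = 6), 11.8-fold higher in the embryos. The 3 early 2-cell Het libraries lay above all PN5 Het libraries, while 1 early 2-cell KO library was at 0.

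Cenpe (ENSMUSG00000045328) encodes a kinesin motor of the kinetochore that carries chromosomes to the middle of the spindle. In M2 eggs it stood at 0.884% and 1.04% in KO, from 53 and 491 counts, and at 0.344% and 0.427% in Het, from 72 and 95 counts. In PN5 zygotes it stood at 0.721%, 0.525% and 0.560% in KO, from 111, 62 and 224 counts, and at 0.371%, 0.112% and 0% in Het, from 137, 37 and 0 counts. The KO libraries lay above the Het libraries at both stages. In zygotes the exact binomial intervals of the nearest libraries overlapped. They were 0.4027% to 0.6724% in KO replicate 2 and 0.3116% to 0.4385% in Het replicate 1. The means were 0.960% ± 0.108 in KO and 0.386% ± 0.0583 in Het eggs (n = 2 each), 2.49-fold higher in KO, and 0.602% ± 0.105 in KO and 0.161% ± 0.190 in Het zygotes (n = 3 each), 3.74-fold higher in KO. PN5 Het replicate 3 was the library with 0 counts, where 20.8 would be present at the 0.241% mean share of the other PN5 Het libraries. Without PN5 Het replicate 1 the zygote difference was 10.8-fold, and without PN5 Het replicate 3 it was 2.49-fold.

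Cenpe had 0 counts in all 5 early 2-cell libraries. Its mean PN5 share of 0.381% ± 0.278 (n = 6) would have given 50.6 counts over these libraries, 29.7 of them in Het replicate 3. Set against a limit of 3 counts over the 5 libraries, Cenpe was at least 16.9-fold lower in early 2-cell embryos than in PN5 zygotes, and at least 6.96-fold lower without early 2-cell Het replicate 3. Within a genotype the bounds were at least 5.54-fold lower among KO libraries and at least 5.63-fold lower among Het libraries, where PN5 Het replicate 3 was also at 0 and the stages therefore overlapped. This limit, like the intervals above, covers no more than counting error, because amplified reads with no molecular identifier may be copies of the same molecule. Within the KO libraries the PN5 shares also lay below the M2 shares, as for 3.43% of the 495 genes. The exact binomial intervals of the nearest libraries overlapped, at 0.5935% to 0.8676% in PN5 replicate 1 and 0.6627% to 1.154% in M2 replicate 1. Markers of cumulus and granulosa cells, given above for zygotes, summed to a mean of 0.0580% in M2 KO eggs and 0.441% in M2 Het eggs. Without Cyp11a1 these means were 0.0527% and 0.0377%, and with or without it the M2 libraries overlapped. The part of these cells in the Cenpe differences was not tested.

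Incenp (ENSMUSG00000024660) encodes the scaffold of the chromosomal passenger complex, which places Aurora B kinase on centromeres and then on the midzone between separating chromosomes. In early 2-cell embryos it stood at 0.493% and 0.616% in KO, from 8 and 7 counts, and at 1.89%, 0.786% and 3.46% in Het, from 20, 13 and 270 counts. The KO embryos lay below all Het embryos, at a mean of 0.555% ± 0.0872 (n = 2) in KO and 2.05% ± 1.35 (n = 3) in Het, 3.69-fold lower in KO (2.41-fold without Het replicate 3). At the Het mean the 2 KO libraries would hold 56.4 counts, or 36.9 at the mean without Het replicate 3, and they held 15. The nearest KO and Het libraries were not apart beyond counting error. Their exact binomial intervals were 0.248% to 1.265% in KO replicate 2 and 0.419% to 1.339% in Het replicate 2.

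In M2 eggs Incenp lay the other way. It stood at 0.284% and 0.171% in KO, from 17 and 81 counts, and at 0% and 0.157% in Het, from 0 and 35 counts, so the nearest KO and Het libraries were close together. In PN5 zygotes it stood at 0.526%, 0.0931% and 0.298% in KO and at 0.168%, 0.401% and 0.313% in Het, and the groups overlapped. Along the Het series the mean ran 0.0786% ± 0.111, 0.294% ± 0.118 and 2.05% ± 1.35 in M2 eggs, PN5 zygotes and early 2-cell embryos. The listed Het shares of neighbouring stages did not overlap, but the exact binomial intervals of the nearest Het libraries did. They were 0.1095% to 0.2186% in M2 replicate 2 and 0.1288% to 0.2152% in PN5 replicate 1. For the later step they were 0.3355% to 0.4746% in PN5 replicate 2 and 0.4189% to 1.339% in early 2-cell replicate 2. Along the KO series the mean ran 0.227% ± 0.0796, 0.306% ± 0.217 and 0.555% ± 0.0872, with overlap between the shares of neighbouring stages.

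Anln (ENSMUSG00000036777) encodes anillin, a scaffold at the cleavage furrow that ties actin, myosin, the GTPase RhoA and septins together. It had 0 and 2 counts in M2 KO, 3 and 0 in M2 Het, 0, 3 and 20 in PN5 KO, and 8, 3 and 0 in PN5 Het. The early 2-cell libraries stood at 0.123% and 0.264% in KO, from 2 and 3 counts, and at 0.472%, 0.121% and 0.731% in Het, from 5, 2 and 57 counts. Every early 2-cell library lay above every egg and zygote library, which was so for 1.62% of the 495 genes (2.63% against zygotes alone), although 4 of these 5 libraries held 5 counts or fewer. The exact binomial intervals of the nearest libraries overlapped. They were 0.01464% to 0.4358% in early 2-cell Het replicate 2 and 0.03055% to 0.07722% in PN5 KO replicate 3. The means were 0.342% ± 0.260 in early 2-cell embryos (n = 5) and 0.0177% ± 0.0191 in PN5 zygotes (n = 6), 19.4-fold higher in the embryos (30.5-fold without PN5 KO replicate 3), and the KO and Het embryos overlapped.

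Septin7 (ENSMUSG00000001833) encodes a GTPase found in septin filaments, which line the furrow and the cell cortex. In early 2-cell embryos it had 0 counts in both KO libraries and stood at 1.04%, 0.121% and 0.449% in Het, from 11, 2 and 35 counts. At the Het mean of 0.536% ± 0.465 (n = 3) the KO libraries would hold 14.8 counts, and against 3 counts over the KO group the level was at least 4.93-fold lower in KO. That bound was 2.62-fold without Het replicate 1, and 2.03-fold or 2.90-fold with 1 KO library in place of both. For a library alone, 0 counts allow up to 0.185% and 0.264% in KO, which is above the 0.121% of Het replicate 2. At the PN5 KO share they would hold 3.99 counts, close to that limit. In M2 eggs Septin7 stood at 0.133% and 0.285% in KO and 0.158% and 0.166% in Het, and in PN5 zygotes at 0.227%, 0.102% and 0.105% in KO and 0.0813%, 0.148% and 0.372% in Het. Those groups overlapped at both stages.

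Smc1a (ENSMUSG00000041133) encodes a core subunit of the cohesin ring, and Pds5b (ENSMUSG00000034021) encodes a cohesin partner that acts with Wapl in loading and release. Smc1a had 0 and 112 counts in M2 KO eggs and 33 and 0 in M2 Het eggs, and 0 counts in all other libraries. At its M2 share the PN5 libraries would hold 144 counts, but a gene seen in 1 library of each egg group gives no stable M2 level. Pds5b had 0 counts in both early 2-cell KO libraries and 1, 1 and 53 counts in the Het libraries, at 0.0944%, 0.0604% and 0.680%. Against 3 counts over the KO group it was at least 2.56-fold lower in KO, a value that rests on Het replicate 3: at the mean of the other Het libraries the KO libraries would hold 2.14 counts, and no fold could be given. The 0.185% and 0.264% that 0 counts allow in the KO libraries lie above both of those Het libraries. In eggs and zygotes Pds5b had between 2 and 16 counts in each library, and its shares overlapped between KO and Het at both stages.

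**Figure D2:**
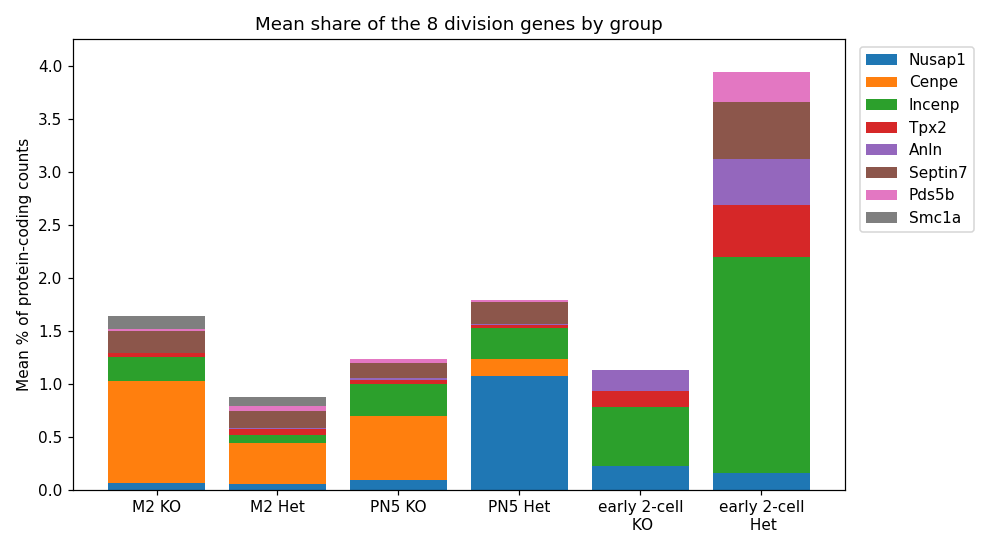
Summed level of the 8 genes in each group, stacked by gene, as the mean percentage of protein-coding counts, with KO left of Het at each stage. A share of counts also grows with transcript length, so band heights are to be compared between groups and not between genes. The Nusap1 band is tallest in PN5 Het zygotes, the Incenp band in early 2-cell Het embryos and the Cenpe band in M2 KO eggs.

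Added over the 8 genes, the share was 1.64% ± 0.170 in KO and 0.870% ± 0.0401 in Het eggs (n = 2 each), and 1.24% ± 0.333 in KO and 1.79% ± 0.599 in Het zygotes (n = 3 each). The embryos stood at 1.13% ± 0.0250 in KO (n = 2) and 3.94% ± 2.11 in Het (n = 3). Other division genes did not follow the same order. Their sum was 4.82% ± 1.28 in KO and 2.85% ± 0.0905 in Het eggs, 3.77% ± 1.18 and 2.48% ± 0.772 in KO and Het zygotes, and 4.91% ± 0.405 and 3.12% ± 0.0372 in KO and Het embryos.

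The difference between genotypes was then fitted over all 495 genes with edgeR's quasi-likelihood test and Benjamini-Hochberg adjustment. No gene passed an adjusted p of 0.05 for KO against Het in M2 eggs, in PN5 zygotes, in early 2-cell embryos or over the 3 stages, a background of 0% in each, so 0 of the 8 passed. At an unadjusted p under 0.05 the numbers of genes higher and lower in KO were 6 and 0 in eggs, 11 and 24 in zygotes and 17 and 8 in embryos, and 8 and 12 over the 3 stages. Among them were Nusap1 in zygotes, Septin7 and Pds5b in embryos, and Septin7 and Pds5b over the 3 stages, each lower in KO. Nusap1 had a log2 fold change of -3.52 in zygotes (edgeR adjusted p = 0.696), and its adjusted p was 0.0434 in DESeq2, which called 2 genes there. DESeq2 called 2 genes in eggs, 4 in embryos and 2 over the 3 stages, none of the 8 among them, and limma-voom called 0 in all 4 comparisons.

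Counts of non-overlapping groups describe the same pattern. Of the 8, 2 (Cenpe and Incenp) had every KO library above every Het library in eggs, where 12.1% of the 495 genes did so. In zygotes 1 (Cenpe) lay above and 1 (Nusap1) below, against 3.43% and 3.03% of the 495 genes. For Cenpe the exact binomial intervals of the nearest zygote libraries overlapped, as did those of Incenp in eggs. In early 2-cell embryos 3 (Incenp, Septin7 and Pds5b) had lower listed shares in every KO library, against 3.84%. Only Incenp among these had counts in the KO libraries, and the limits that 0 counts allow for Septin7 and Pds5b there overlap the Het shares. For Incenp the exact binomial intervals of the nearest early 2-cell KO and Het libraries overlapped too. Between early 2-cell and PN5 libraries of the Het females, 4 of the 8 lay above (Incenp, Tpx2, Anln and Pds5b; 6.67% of the 495) and 1 below (Nusap1; 9.49%). From M2 to PN5 in the Het libraries 2 lay higher at PN5 (Nusap1 and Incenp, against 7.47% of the 495). For Incenp the exact binomial intervals of the nearest Het libraries overlapped at each of these steps. For Anln and Pds5b they overlapped between PN5 and early 2-cell libraries. The Nusap1 interval of early 2-cell Het replicate 1, from 1 count, also reached into that of PN5 Het replicate 1. Between early 2-cell and PN5 libraries of the KO females 2 lay above (Nusap1 and Anln, against 14.5% of the 495). These 2 had 2 or 3 counts in each embryo library, and the exact binomial intervals of their nearest libraries overlapped. Cenpe lay below. Septin7 and Pds5b were also listed lower, at 0 counts in the embryos (9.7% of the 495 were listed lower), but the limits of 0.185% and 0.264% reach into their PN5 KO shares, so no difference was detectable at this depth. Because the 8 were chosen on these levels, nothing is read from these shares.

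Between stages, PN5 zygotes against M2 eggs gave 0 calls, a background of 0%, with 17 genes higher and 5 lower at an unadjusted p under 0.05 1 call by DESeq2 and 0 by limma-voom. Early 2-cell embryos against PN5 zygotes gave 4 calls (0.808% of 495), all lower in embryos: AC161374.3, Ddx21, Nefh and Cenpe, named after their values were seen. Cenpe had an edgeR adjusted p of 0.0492, and over the 22 alternative fits this p ran between 0.00162 and 0.225, with 7 of them below the threshold. Leaving out a library kept the call only for PN5 KO replicate 2, PN5 Het replicate 3 and early 2-cell Het replicate 2, and ended it for each of the other 12. The fitted fold changes of this comparison carry a shift: the median over the 495 genes was -2.01 on the log2 scale. Anln and Tpx2 had log2 fold changes of 2.59 and 1.67, above that median, and did not pass in edgeR, while DESeq2 called both higher. Without early 2-cell KO replicate 1, the only KO embryo library with Tpx2 counts, the Tpx2 log2 fold change was -1.51. Septin7 and Pds5b had higher mean shares in embryos than in zygotes but fitted log2 fold changes of -3.83 and -1.28, and both had 0 counts in early 2-cell KO embryos. The fitted Septin7 value was below 0 in all 22 alternatives, and that of Pds5b was above 0 in DESeq2 and limma-voom. Without early 2-cell Het replicate 1, the mean Septin7 share was 1.21-fold lower in embryos.

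**Figure D3:**
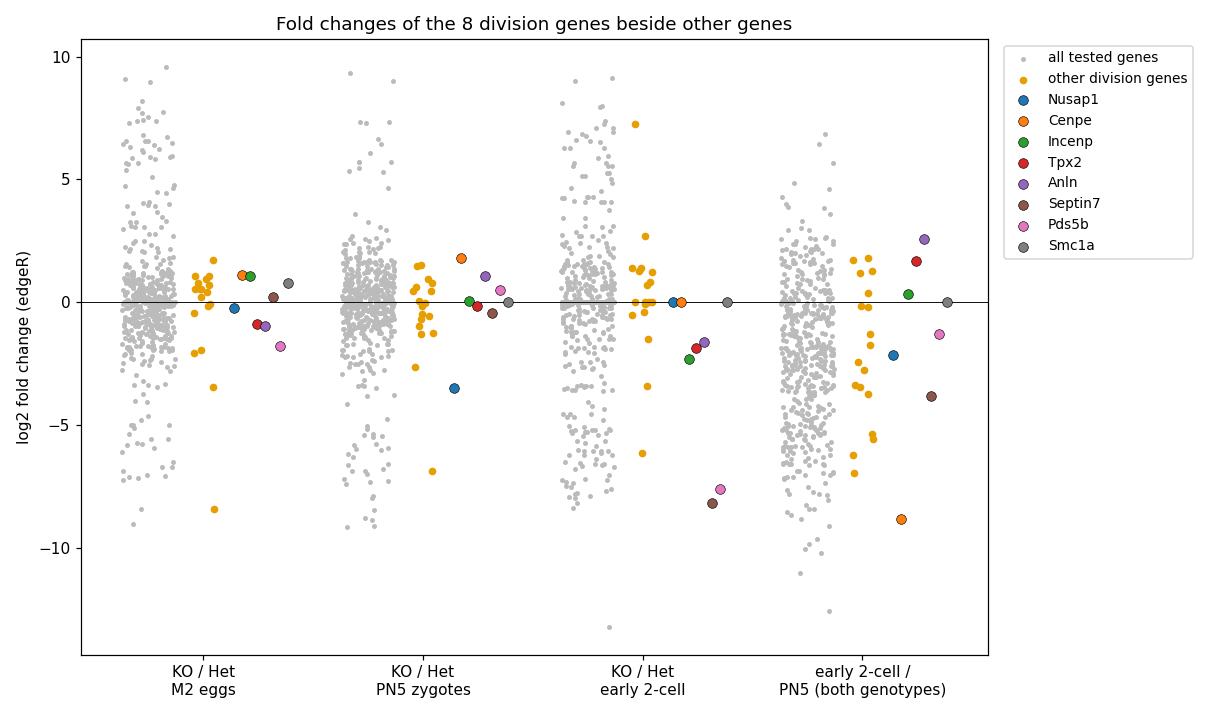
Fitted log2 fold changes (edgeR) of all 495 genes in grey, 18 other division genes in yellow and the 8 genes in colour, for KO over Het at each stage and for early 2-cell embryos over PN5 zygotes. Values near -8 belong to genes with 0 counts in one group and depend on the prior count. Nusap1 is at -3.52 in zygotes, and Cenpe is at -8.82 in the stage comparison.

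Most partners of these proteins were not counted. Across lists of spindle, kinetochore, passenger complex, cohesin, condensin and cytokinesis genes, 62 of 157 other rows had a count (39.5%), against 17.7% of all protein-coding genes. Of the kinetochore list, 15 of 45 had a count, and Knl1, Ttk and Bub1 were at 0. Of the 10 passenger complex and centromere protection genes, 3 had a count, and Aurkb, Aurkc, Birc5 and Cdca8, the partners of Incenp, were at 0 in every library. Of 20 cohesin genes, 9 had a count, with Smc3, Rad21, Rec8 and the meiotic Smc1b at 0. Aurka, the kinase that Tpx2 activates, and Ect2 and Racgap1, which direct RhoA at the furrow, were also at 0.

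Of the other division genes, 18 were tested, and 0 of 18 passed in each of the 6 comparisons in edgeR. At an unadjusted p under 0.05, 1 was lower in KO zygotes, 1 was lower in KO embryos and 5 were lower in early 2-cell embryos than in zygotes. In that stage comparison DESeq2 called 3 of the 18 and limma-voom 1, and both called 0 in the other 5 comparisons. Their median log2 fold change for KO against Het was 0.475 in eggs, -0.0824 in zygotes and 0 in embryos, where all 495 genes had medians of -0.0151, 0 and 0. Cenpf, a large kinetochore protein that accumulates before mitosis, averaged 0.325% ± 0.0591 in KO and 0.196% ± 0.0208 in Het eggs (n = 2 each), and 0.276% ± 0.0963 in KO and 0.178% ± 0.0644 in Het zygotes (n = 3 each). Cenpf had 2 early 2-cell counts over the KO libraries and 2 over the Het libraries. Nuf2, of the Ndc80 complex that holds microtubules, had 0 counts in early 2-cell embryos and 61 and 104 in eggs and zygotes.

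Of the cohesin list, Wapl had counts in 3 libraries of the series, and Nipbl, the cohesin loader, had counts in 6. Wapl had 0 counts over the M2 KO libraries and 84 in 1 of the 2 M2 Het libraries, the other M2 Het library also being at 0. Stag1, a cohesin subunit, had 0 counts in early 2-cell KO embryos and 12 in early 2-cell Het embryos. The limit of 3 counts over the KO group, 0.109%, is close to the Het mean of 0.110% ± 0.0140 (n = 3). No Stag1 difference was therefore detectable at this depth. Smc4, of condensin, averaged 0.531% ± 0.298 in KO and 0.159% ± 0.123 in Het zygotes (n = 3 each), and its adjusted p was 1.00 in edgeR. Smc6 had 0 counts in early 2-cell KO embryos and 1 in early 2-cell Het embryos. Rock1, a kinase that activates myosin at the furrow, averaged 2.27% ± 1.20 in KO and 0.921% ± 0.0703 in Het eggs (n = 2 each). Diaph3, a formin, averaged 0.168% ± 0.162 in early 2-cell embryos (n = 5) and 0.0306% ± 0.0283 in zygotes (n = 6), and Septin11 averaged 0.0365% ± 0.050 and 0.102% ± 0.0476 there. Kif20b, Akap9 and Pcnt of the spindle list had 283, 312 and 170 counts in all, none with an edgeR adjusted p under 0.05.

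Genes whose shares ran most like each of the 8 over the 15 libraries were ranked among 424 tested protein-coding genes by Spearman's rho, as a description. The libraries share their depth differences and many zeros, which such values carry. Cenpe ran most like Cenpf (rho 0.892) and Gcc2 (0.859). Anln ran most like Tra2b (0.883) and Cspp1 (0.804), Incenp most like Gigyf2 (0.832) and Nop58 (0.804), and Pds5b most like Aff4 (0.814) and Stag1 (0.674). Nusap1 had weaker neighbours in Atad2 (0.657) and Nasp (0.634), as had Tpx2 in Clspn (0.588) and Smarca4 (0.563) and Septin7 in Pds5b (0.571) and Ncoa2 (0.553). Smc1a, with counts in 2 libraries, was not ranked. Within the 8, the pairs with the lowest values were Anln and Cenpe (rho -0.623) and Incenp and Cenpe (-0.601). Nusap1 and Smc1a (-0.592) and Nusap1 and Cenpe (-0.583) came next.

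The 8 genes lie apart in the GRCm38 assembly, on chromosomes 2, 3, 5, 9, 19 and X. Nusap1 (chr2:119618298-119650165) and Tpx2 (chr2:152847964-152895321) share a chromosome, as do Anln (chr9:22331214-22389211) and Septin7 (chr9:25251991-25308571). Cenpe lies at chr3:135212563-135273540, Incenp at chr19:9872295-9899489, Pds5b at chr5:150673713-150810669 and Smc1a at chrX:152016428-152061973. The overlapping annotated genes that were found in the table, among them Oip5 beside Nusap1 and Ribc1 beside Smc1a, had 0 or 1 count each over the 15 libraries.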

How the data were processed

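What the authors deposited was a gene table of estimated counts, whole numbers not scaled for depth. The submitters' processing notes name STAR 2.7.6a, cutadapt, deepTools 3.5.1, StringTie 2.1.4 and the GRCm38 build; the way counts were estimated, and the handling of reads that match several genes, are not given in the sources used here. Groups and replicate numbers came from the labels.

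Biotypes and coordinates came from RefSeq GRCm38.p6, matched by symbol for 39101 genes and by an older symbol for 164. Shares are of protein-coding counts, with exact (Clopper-Pearson) 95% intervals. A count of 0 was set at 3 counts, over the group for folds. Deposited counts were rounded (no value changed) and fitted in edgeR 4.0.16 (R 4.3.3) with TMM, filterByExpr (minimum count 10), a robust quasi-likelihood fit of 6 group means with 9 residual degrees of freedom, and Benjamini-Hochberg adjustment over 495 genes. The script was tested on simulated counts.

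Alternatives were DESeq2 1.42.0, limma-voom (limma 3.58.1), DESeq2 size factors, library totals, protein-coding genes only, no low-count filter, a replicate block and leaving out each library. Besides the 8 genes, up to 3 tested genes per list with the highest mean share were named, and the 2 most alike genes by Spearman's rho, for genes counted in at least 8 libraries. The 8 genes and the lists were chosen with earlier results of these data known.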

Additional observations from a re-analysis of the deposited data

Results flagged for a closer look

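Incenp lay in opposite directions at both ends of the series. Its KO libraries were all above the Het libraries in M2 eggs (means of 0.227% in KO and 0.0786% in Het, n = 2 each) and all below them in early 2-cell embryos (0.555% in KO, n = 2, and 2.05% in Het, n = 3). The change of the KO-over-Het fold between early 2-cell embryos and M2 eggs was -3.37 on the log2 scale in edgeR, and its adjusted p was 1.00 over the 495 genes, so the opposite directions did not pass the test. The M2 difference rested on 1 Het library with 0 counts, and the early 2-cell KO value on 15 counts. The exact binomial intervals of the nearest early 2-cell KO and Het libraries overlapped.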

How the results depend on the processing

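For KO against Het, edgeR's count of 0 calls was 2 in M2 eggs, 2 in PN5 zygotes (1 of the 8, Nusap1), 4 in early 2-cell embryos and 2 over the 3 stages under DESeq2; without the low-count filter it was 1 in early 2-cell embryos and 1 over the 3 stages. DESeq2 made 1 call for PN5 zygotes against M2 eggs. For early 2-cell embryos against PN5 zygotes the 4 calls became 53 under DESeq2 (29 higher, 24 lower; 3 of the 8 and 3 other division genes), 21 under limma-voom (Cenpe and 1 other division gene), 16 without the filter (Cenpe alone of the 8), 0 with library totals only and 0 with the replicate block. Of the 8, 0 were called there with DESeq2 size factors, with library totals only or with the block. Leaving out each library gave 0 to 12 calls there (0 to 1 of the 8) and 0 to 1 in early 2-cell embryos for KO against Het (1 without early 2-cell Het replicate 2). The median log2 fold change of all genes in the stage comparison was -2.01, and it was -0.493 in DESeq2, -0.100 in limma-voom and -1.24 with DESeq2 size factors. Within a stage, deviations of same-numbered KO and Het libraries correlated between -0.357 and 0.0880, which showed no pairing by replicate number. The M2 values of replicates 1 and 2 are equal by construction (-0.123). A batch shared across stages could not be seen this way. The block changed no call other than those given. Of 1056 fold values of the 8 under alternatives, 49 moved by more than the spread. Sign was scored only for the 1 called fold, Cenpe between early 2-cell embryos and PN5 zygotes. It kept its sign in all 22 alternatives, which says little for a gene at 0 counts in every early 2-cell library. Uncalled folds changed sign in some alternatives, among them KO against Het for Nusap1 in embryos (5 of 22) and Incenp in zygotes (4 of 22). Nusap1 in zygotes kept its sign in all 22. Folds of mean shares without each library, given beside the folds they move by over 1.5 times, were added after seeing the data. The cause of these differences was not tested. Depth limits early 2-cell values most, since 4 of those 5 libraries held 1059 to 1655 protein-coding counts.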
